A study of Rattus norvegicus with 8 samples.

Results

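The expression of 10 genes of acetylcholine signalling was read in the rat hippocampus: the nicotinic receptor subunit genes Chrna3, Chrna4, Chrna5, Chrna7 and Chrnb2, the muscarinic receptor genes Chrm1, Chrm2, Chrm3 and Chrm4, and Ache. Their probes were found by an exact match of the gene name in the scanner files, which gave 11 of the 30367 probes on the array, 2 of them for Chrm2 and 1 for each of the other genes. Of the 10 genes, 9 passed the filter on low signal and stood among the 18803 features that were compared. The 10 genes were selected on a readout of these same arrays, the list having been drawn up with the log2 differences between Y+I and vehicle in view. Their differences between the groups are therefore given as a description, without p-values.

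Hippocampal total RNA carrying the dye Cy3 was read on 1-colour arrays of Agilent for the rat, 1 array for each of 8 male animals of the Sprague Dawley strain, 3 months old. In all, 4 animals had received Y+I, the combination of yohimbine and imipramine named in the title of the study, for 7 days, and 4 animals had received vehicle for 7 days. The labels place tissue collection at 2 hours. Yohimbine is an antagonist of alpha-2 adrenergic receptors. Imipramine, of the tricyclic class of antidepressants, blocks reuptake of serotonin and noradrenaline and also binds muscarinic receptors. Animals given either drug alone were not analysed here, so the effects of the drugs cannot be told apart.

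Acetylcholine reaches the hippocampus mainly through the axons of cholinergic neurons whose cell bodies lie in the medial septum and diagonal band. Nicotinic receptors are cation channels of 5 subunits, of which the alpha-4 with beta-2 combination and the alpha-7 channel are the main forms in the brain. Alpha-3, alpha-5 and beta-4 are encoded next to each other and join in other channels, with alpha-5 as an accessory subunit that works beside other alpha and beta subunits. Muscarinic receptors couple to G proteins: M1 and M3 act through Gq and phospholipase C, M2 and M4 through Gi/o. Acetylcholinesterase, the product of Ache, ends the signal by cleaving acetylcholine.

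The probes for Chrna4 and Chrna3 are shown because they lie in a stretch that the 2 subunit genes share in part, and because Chrna4 had the largest difference of the 9 genes that were compared. Capitals mark bases that were identical when the end of the Chrna3 probe was laid on the start of the Chrna4 probe without gaps.
Chrna4: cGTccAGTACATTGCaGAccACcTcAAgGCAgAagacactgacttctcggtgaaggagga
Chrna3: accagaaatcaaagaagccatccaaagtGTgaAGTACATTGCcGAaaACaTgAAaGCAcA
The 2 probes shared 23 of 33 overlapping bases, or 69.7%, which was the highest match of any probe for the 10 genes to another acetylcholine receptor probe. The best match of the other 9 probes was between 47.2% and 56.2%. In the file's coordinates on rat build rn4, the 60 bases of the Chrna4 probe run over 3368 bases of the minus strand, chr3:170171576-170174943, and so are not contiguous in that build. The Chrna3 probe is contiguous at chr8:58572596-58572655, also on the minus strand.

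All values below are log2 signals relative to the 75th percentile of their own array, so 0 is the 75th percentile itself, and levels of different probes are not set against each other. A probe counts as detected on an array when at least 50% of its spots were well above background by the scanner software. Between 64.4% and 74.8% of spots were well above background on the Y+I arrays, against 76.4% to 79.7% on the vehicle arrays, and the 75th percentile signal was 1045 to 1971 units on the Y+I arrays and 1939 to 2106 units on the vehicle arrays. The dimmest spot that still counted as well above background was at -6.74 to -5.09 on the Y+I arrays and at -7.41 to -6.88 on the vehicle arrays, so a dim probe needed a higher level to be detected on the Y+I arrays. All 8 arrays lay on 1 slide and were read in 1 scan, with the Y+I arrays in 1 row of the slide and the vehicle arrays in the other, so row and treatment cannot be told apart. In limma's fit, 439 of the 18803 features (2.33%) passed the threshold of an adjusted p under 0.05, 139 of them higher and 300 lower in Y+I. With normexp background correction the split was 401 higher and 203 lower. Arrays of whole tissue cannot tell fewer cells of a type from less RNA per cell.

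Chrna4 encodes the alpha-4 subunit of the most abundant nicotinic receptor with high affinity for nicotine in the brain. Its level was -4.89, -5.54, -6.02 and -4.98 in the 4 Y+I animals, against -2.23, -2.73, -2.82 and -2.63 in the 4 vehicle animals. The 2 groups did not overlap, and the highest Y+I animal lay below the lowest vehicle animal. The mean was -5.36 ± 0.52 in Y+I and -2.60 ± 0.26 in vehicle (SD, n = 4 each), a log2 difference of -2.76 ± 0.25 (SE; 95% interval -3.33 to -2.18), or 6.76-fold lower. The size of that fold depended on background correction. The log2 difference was -1.39 with normexp correction, outside that interval, and -2.58 in the authors' deposited value table.

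The Chrna4 probe was detected on 3 of the 4 Y+I arrays and on all 4 vehicle arrays, so its Y+I level is near the limit of measurement. Of its 8 spots on the Y+I arrays, 5 were well above background: both spots in animals 1 and 4, 1 in animal 2 and none in animal 3. All 8 spots on the vehicle arrays were well above background. The processed signal was 19.3 to 68.2 units over the Y+I spots and 268 to 437 units over the vehicle spots. Before any correction, the mean spot signal was 56.7 to 109 units in Y+I and 300 to 468 units in vehicle, so the groups were also apart in the uncorrected signal. Without Y+I animals 2 and 3, where the probe was not well above background on every spot, the log2 difference was -2.34.

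**Figure D1:**
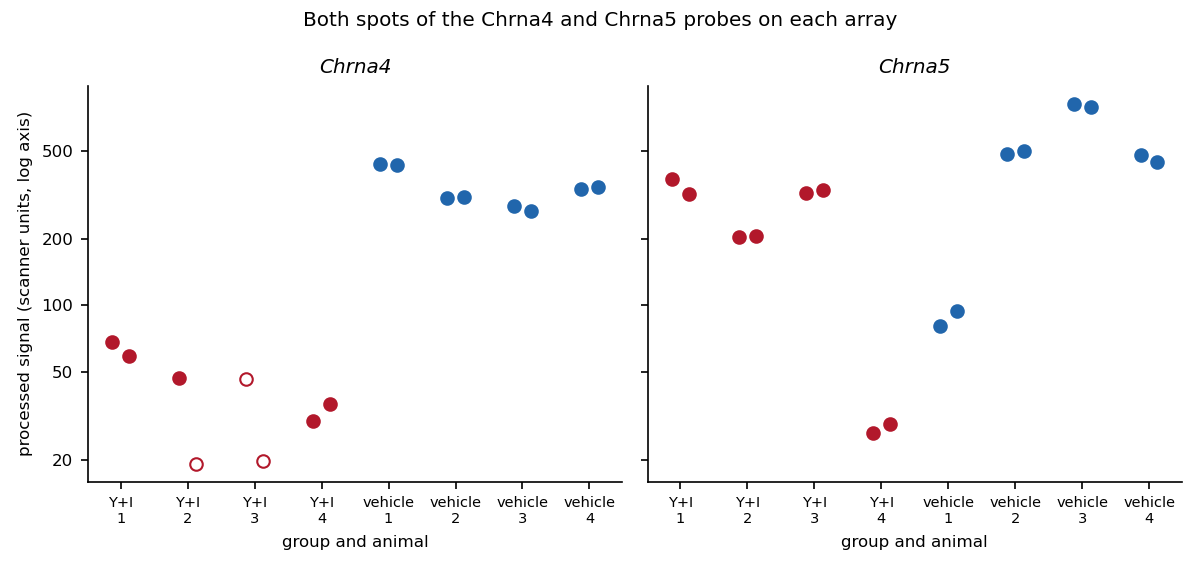
Processed signal in scanner units on a log axis for both spots of the Chrna4 probe (left) and of the Chrna5 probe (right) on each of the 4 Y+I and 4 vehicle arrays; filled points are well above background and open points are not. The Chrna4 spots lie at 19.3 to 68.2 units in Y+I and 268 to 437 units in vehicle, while 1 animal of each group has low Chrna5 spots.

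Chrnb2 encodes beta-2, the usual partner of alpha-4. Its level was -5.02, -4.92, -4.89 and -4.70 in Y+I, against -4.88, -4.85, -4.52 and -4.59 in vehicle. The ranges overlapped, and the probe was detected on all 8 arrays. Between the groups it differed by -0.17 ± 0.12 on the log2 scale (SE; 95% interval -0.45 to 0.10), so a difference of the size seen for Chrna4 lay outside its interval, and with normexp correction the sign turned to 0.12. The beta-2 probe lies at chr2:181961457-181961516 on the minus strand of rn4.

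Chrna7 encodes alpha-7, which forms channels of a single subunit type with high calcium permeability. Its level was -4.85, -5.38, -5.21 and -4.81 in Y+I, against -5.63, -4.73, -4.44 and -4.55 in vehicle. The groups overlapped, with the lowest value in a vehicle animal, and the probe (chr1:117587580-117587639) was detected on 3 Y+I and 4 vehicle arrays. Chrna7 differed by -0.22 ± 0.26 on the log2 scale (SE; 95% interval -0.82 to 0.37), and by 0.11 with normexp correction. A further probe that the file describes as alpha-7 but names by an Ensembl transcript, at chr1:117640777-117640836, was detected on 1 Y+I and 4 vehicle arrays. Its level was -6.64 ± 0.92 in Y+I and -5.95 ± 0.21 in vehicle (SD, n = 4 each), and its difference of -0.69 turned to 0.14 with normexp correction.

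Chrna5 encodes the accessory alpha-5 subunit. Its level was -2.45, -2.78, -2.59 and -5.23 in Y+I, against -4.54, -2.05, -1.28 and -2.19 in vehicle. Animal 4 of the Y+I group and animal 1 of the vehicle group stood well below the other members of their groups, and the ranges overlapped. The pooled SD within groups was 1.36, which is larger than that of 99.9% of the 18803 features. The log2 difference of -0.74 ± 0.80 (SE; 95% interval -2.55 to 1.06) was smaller than the spread between animals, and it was -0.09 without Y+I animal 4 and -1.42 without vehicle animal 1. All 16 spots of the probe were well above background, and both spots of an array gave similar signals, so the low values were not single bad spots.

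The neighbouring probes did not share the spread of Chrna5. Its probe lies at chr8:58566044-58566103 on the plus strand of rn4, and 9 probes, itself included, lie within 200 kb. The other 5 probes detected on all 8 arrays had pooled SDs of 0.102 to 0.321. Chrnb4, which encodes beta-4 and whose probe lies 20935 bases away, was at -1.77, -1.39, -1.87 and -1.33 in Y+I, against -1.73, -1.63, -1.70 and -1.73 in vehicle. Of the 2 animals with low Chrna5, Y+I animal 4 had the highest Chrnb4 level of its group, and vehicle animal 1 lay within the range of the other vehicle animals. The pooled SD of Psma4, a proteasome subunit gene on the other side, was 0.12.

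Chrna3 encodes alpha-3, known best from autonomic ganglia and the medial habenula. Its probe, 6552 bases from that of Chrna5, was detected on 0 of 4 Y+I arrays and 3 of 4 vehicle arrays, and it did not pass the filter. The measured values were -8.17, -7.62, -7.35 and -8.47 in Y+I, against -7.26, -7.18, -6.78 and -6.99 in vehicle. All Y+I values were below the vehicle values, but the Y+I probe was not well above background on any array, so no fold is given. The measured log2 difference of -0.85 turned to 0.19 with normexp correction. By spots, 0 of 8 in Y+I and 5 of 8 in vehicle were well above background.

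**Figure D2:**
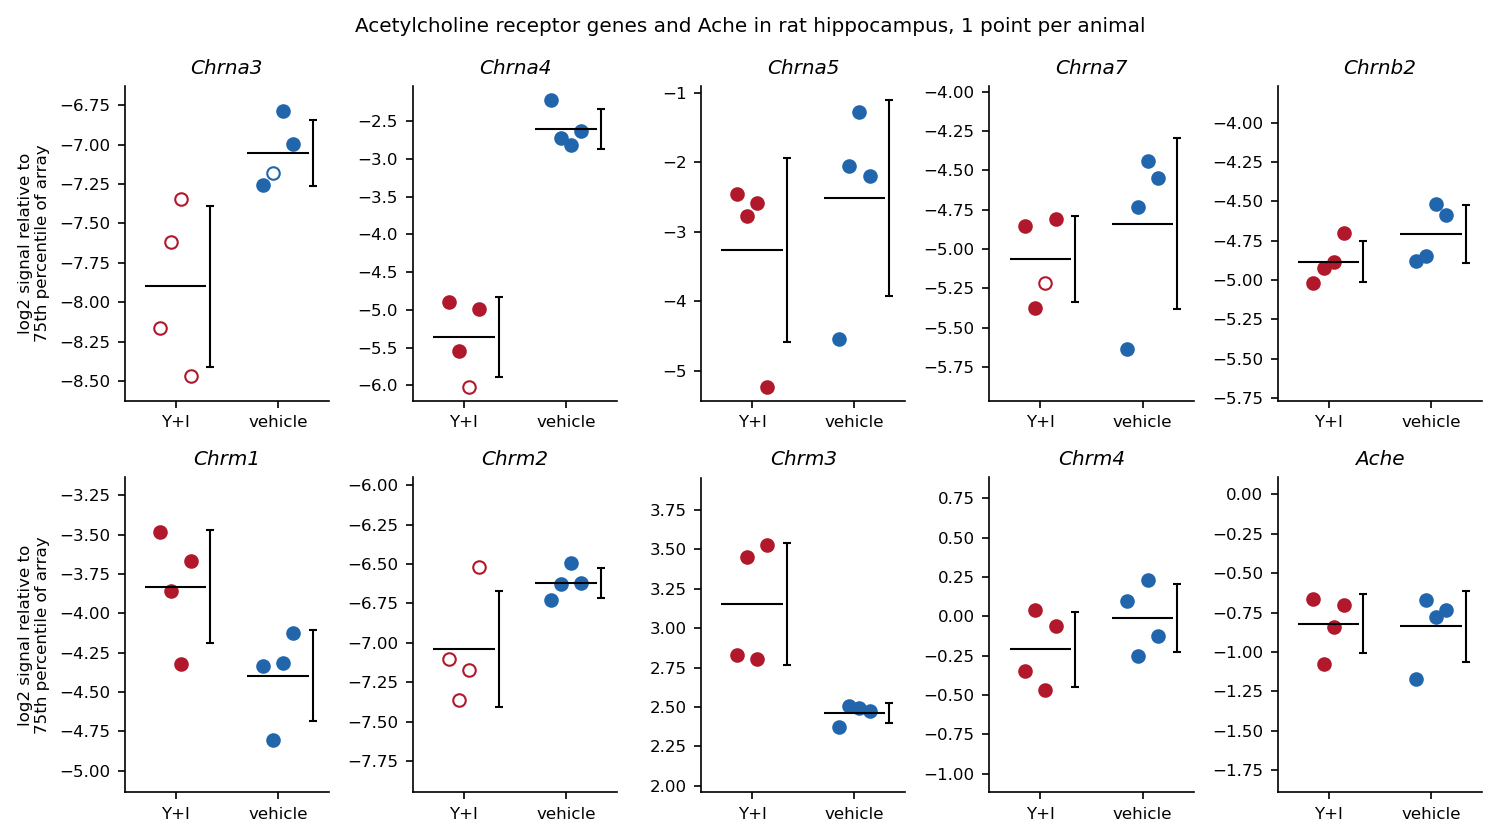
Log2 signal relative to the 75th percentile of the array, for each of the 10 genes in the 4 Y+I and 4 vehicle animals; filled points are detected and open points are not, horizontal lines are group means and bars beside them are 1 SD to each side. Chrna4 lies at -6.02 to -4.89 in Y+I and -2.82 to -2.23 in vehicle, and Chrm3 at 2.80 to 3.53 in Y+I and 2.37 to 2.51 in vehicle.

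Chrm3 encodes M3, a receptor coupled to Gq. Its level was 2.83, 3.45, 2.80 and 3.53 in Y+I, against 2.37, 2.51, 2.50 and 2.47 in vehicle. Every Y+I animal was above every vehicle animal, and the vehicle animals lay close together. The mean was 3.15 ± 0.39 in Y+I and 2.46 ± 0.06 in vehicle (SD, n = 4 each), a log2 difference of 0.69 ± 0.18 (SE; 95% interval 0.28 to 1.1), or 1.62-fold. That difference did not pass the threshold adjusted over all features, while its sign and size were similar with normexp correction (0.64). The highest values were those of Y+I animals 2 and 4, whose arrays had the lowest 75th percentile signals (1408 and 1045 units). Before scaling to that percentile, the Chrm3 signal was 12076 to 15393 units in Y+I and 10498 to 11698 units in vehicle. The probe lies at chr17:71218386-71218445 on the plus strand.

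Chrm1 encodes M1, the main muscarinic receptor of hippocampal pyramidal cells. Its level was -3.48, -3.86, -4.32 and -3.67 in Y+I, against -4.34, -4.80, -4.32 and -4.13 in vehicle. The ranges overlapped at a single Y+I animal, animal 3, and the probe (chr1:211352865-211352924) was detected on all 8 arrays. The log2 difference was 0.57 ± 0.20 (SE; 95% interval 0.10 to 1.03), which did not pass the threshold over all features, and it was 0.44 with normexp correction.

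Chrm2 encodes M2, an inhibitory autoreceptor on cholinergic terminals that also occurs on interneurons. Its brighter probe, at chr4:63916605-63916664, was at -7.10, -7.36, -7.18 and -6.52 in Y+I, against -6.73, -6.62, -6.49 and -6.62 in vehicle. It was detected on 0 of 4 Y+I arrays and 4 of 4 vehicle arrays. The vehicle level of -6.62 ± 0.10 (SD, n = 4) lay below the lowest signal well above background on Y+I arrays 1, 2 and 3, so the lack of detection there gives no fold. The measured log2 difference was -0.42 ± 0.17 (SE) and turned to 0.21 with normexp correction. The other Chrm2 probe, at chr4:63915250-63915309, was not well above background on any of the 8 arrays.

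Chrm4 encodes M4, a receptor coupled to Gi/o that is most abundant in striatum. Its level was -0.35, 0.04, -0.47 and -0.06 in Y+I, against 0.10, -0.25, 0.23 and -0.13 in vehicle. The ranges overlapped, with a log2 difference of -0.20 ± 0.15 (SE; 95% interval -0.54 to 0.15) and detection on all 8 arrays (chr3:76309651-76309710).

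Ache, the gene of acetylcholinesterase, was at -0.66, -1.08, -0.84 and -0.70 in Y+I, against -1.17, -0.67, -0.78 and -0.73 in vehicle. The groups overlapped almost fully. Its log2 difference was 0.02 ± 0.14 (SE; 95% interval -0.31 to 0.34), and the probe was detected on all 8 arrays.

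Of the 9 genes that could be compared, 1 (Chrna4, lower) passed the threshold, beside 2.33% of all features in either direction and 1.60% that were lower. Chrna4, Chrna7 and Chrm2 met the filter through the vehicle arrays only. With a filter on all 8 arrays, which left Chrna4 out, the count was 0. Groups did not overlap for 2 of the 9, beside 11.7% of all features: Chrna4 was lower without overlap, as were 6.65% of all features, and Chrm3 was higher without overlap, as were 5.04%. Of the 9 differences, 3 were above 0 and 6 below, with a median of -0.20 beside -0.02 over all features. With normexp correction both medians moved, to 0.11 and 0.09. These counts describe a list put together with this contrast known.

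**Figure D3:**
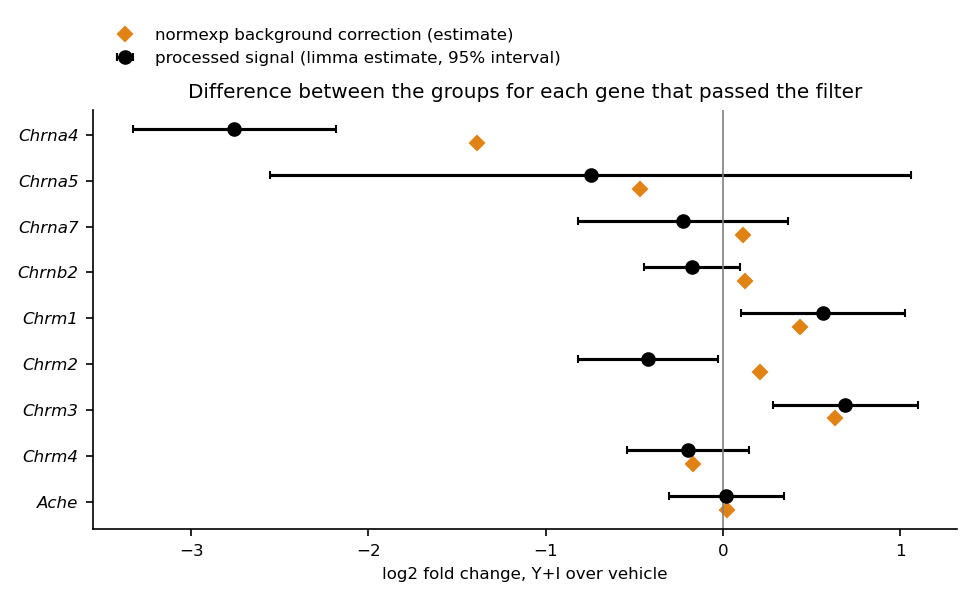
Log2 difference, Y+I minus vehicle, for the 9 genes that passed the filter: circles with 95% intervals are the main values, and diamonds are estimates with normexp background correction. Chrna4 is at -2.76 in the main values and -1.39 with normexp, and the signs of Chrna7, Chrnb2 and Chrm2 turn.

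The features whose profile over the 8 arrays was nearest to that of Chrna4, after each was centred on its own mean, were Nxph3, Myh3 and Slc6a5. Their root mean square distances from it were 0.193, 0.284 and 0.292 log2 units. Nxph3, which encodes the secreted alpha-neurexin ligand neurexophilin 3, differed by -2.82 between the groups. Myh3, an embryonic skeletal muscle myosin heavy chain gene, differed by -2.56. Slc6a5, the neuronal glycine transporter gene, differed by -2.59 and was detected on 2 of 4 Y+I arrays and 4 of 4 vehicle arrays. Likeness over 8 arrays in 2 groups follows largely from a like difference between the groups.

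Beyond these 10 genes, 46 genes of the pathway in 4 lists were read. The 4 lists, and the marker lists further below, were drawn up with earlier results of these data known. Their counts and p-values are therefore a description. Of the 46 genes, 37 could be tested. Of these, 1 rose, 2 fell and 34 did not pass the test, beside 0.739% of all features higher and 1.60% lower. Their median log2 difference was -0.02, the same as over all features, and 18 of them were above 0 and 19 below. With normexp correction their median was 0.14, beside 0.09 over all features.

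Rgs4, which encodes a GTPase-activating protein that shortens Gq and Gi/o signals of receptors such as the muscarinic ones, fell. Its level was 0.40, 0.33, 0.05 and 0.59 in Y+I, against 2.88, 1.99, 1.90 and 2.52 in vehicle, with no overlap. The log2 difference was -1.98 ± 0.22 (SE), 3.95-fold lower, with an adjusted p of 0.00616 in limma's fit. Kcnj6, which encodes the GIRK2 subunit of the potassium channels that Gi/o receptors open, rose: its level was -0.40, -0.62, -0.24 and -0.56 in Y+I, against -0.98, -1.02, -1.24 and -1.07 in vehicle. The log2 difference was 0.62 ± 0.11 (SE), 1.54-fold, with an adjusted p of 0.030 in limma's fit; of 8 fits that each left out 1 animal it passed in 2, those without Y+I animal 2 and without Y+I animal 4. Of the 16 genes of muscarinic signalling, 14 others, G proteins, phospholipases, protein kinases C and Kcnq channel subunits among them, did not pass the test. Prkca, the gene of protein kinase C alpha, came nearest, with a log2 difference of 0.61 ± 0.14 (SE) and an adjusted p of 0.0647 in limma's fit. The call of Prkca depended on the setting. It passed with normexp correction, with a filter on all 8 arrays, with no filter and with trend and robust fitting. In the fits that each left out 1 animal it did not pass. The median of the 16 was 0.23.

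Among 11 genes of proteins that assemble or modulate nicotinic receptors, 9 could be tested and 1 fell. Lypd1, which encodes the Ly6 family protein Lynx2, a membrane-anchored modulator of nicotinic receptors, was at 1.05, -0.24, 1.13 and 0.68 in Y+I, against 2.31, 2.24, 2.38 and 2.33 in vehicle. The vehicle animals were nearly equal, and the Y+I animals were spread below them. The log2 difference was -1.66 ± 0.27 (SE), 3.16-fold lower, with an adjusted p of 0.0213 in limma's fit; of 8 fits that each left out 1 animal it passed in 3, those without Y+I animal 1, 2 or 3, with an adjusted p of up to 0.0727 without vehicle animal 4. Vsnl1, which encodes the neuronal calcium sensor visinin-like 1, had the next smallest p, with a log2 difference of -0.18 ± 0.11 (SE; adjusted p = 0.495 in limma's fit).

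Of the 12 other receptor subunit genes, 5 could be tested and none passed in the main values. Chrna2, Chrna6, Chrna9, Chrna10, Chrnb3, Chrnd and Chrm5 were not detected on any of the 8 arrays. Chrne, the epsilon subunit gene of the adult muscle receptor, was at -6.25, -7.49, -6.58 and -5.46 in Y+I, against -4.22, -4.89, -4.83 and -5.06 in vehicle. It was detected on 2 Y+I and 4 vehicle arrays, and its log2 difference of -1.70 ± 0.38 (SE; adjusted p = 0.0641 in limma's fit) was -0.20 with normexp correction. The call of Chrne depended on the setting: its adjusted p in limma's fit was 0.0395 with no filter, 0.0406 with trend and robust fitting, 0.0242 with array weights and 0.0294 without Y+I animal 4. For Chrnb1, the muscle beta-1 gene, the log2 difference was -0.26 ± 0.12 (SE; adjusted p = 0.362 in limma's fit) and turned to 0.14 with normexp correction.

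None of the 7 genes of acetylcholine synthesis, transport and breakdown passed the test. Chat, the gene of the enzyme that makes acetylcholine, was at -6.85 ± 0.69 in Y+I and -6.73 ± 0.28 in vehicle (SD, n = 4 each), and was detected on 1 Y+I and 4 vehicle arrays. Slc18a3, the vesicular acetylcholine transporter gene, was at -4.08 ± 0.07 in Y+I and -4.09 ± 0.08 in vehicle, with a log2 difference of 0.01 ± 0.09 (SE; 95% interval -0.19 to 0.21). Slc5a7, the gene of the high-affinity choline transporter, was at -4.81, -3.65, -6.78 and -3.52 in Y+I, against -4.39, -3.84, -4.82 and -5.17 in vehicle. Its Y+I animals were spread around the vehicle animals, with 3 of 4 Y+I arrays above background. The smallest p-values of the list were those of Bche, the butyrylcholinesterase gene (log2 difference 0.41 ± 0.35, SE), and of Slc44a1, a choline transporter-like gene (-0.34 ± 0.35, SE), with adjusted p = 0.635 and 0.706 in limma's fit.

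**Figure D4:**
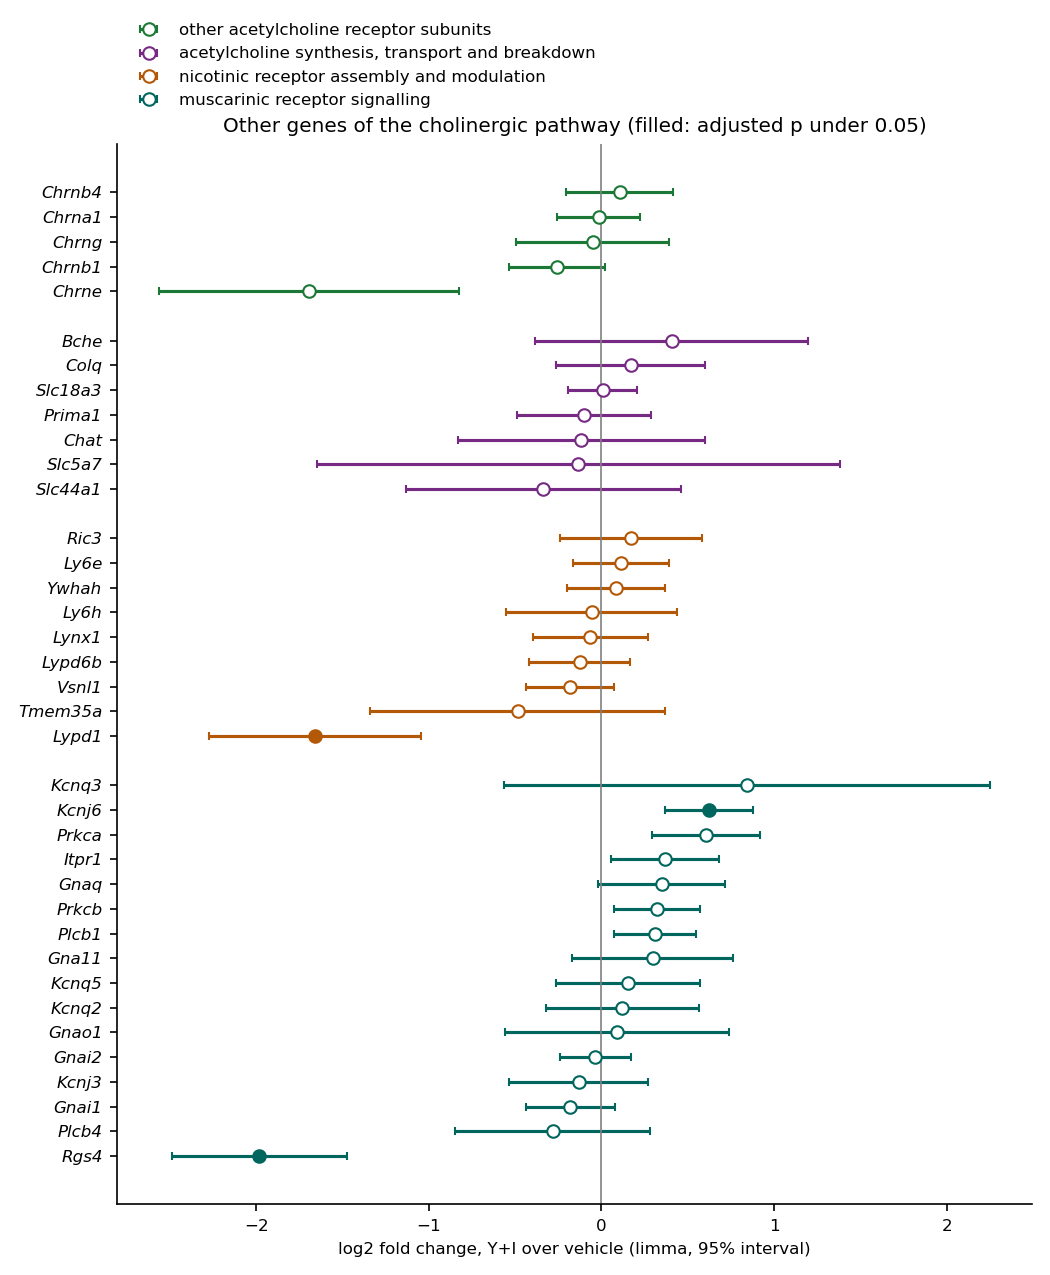
Log2 difference, Y+I minus vehicle, with its 95% interval, of the 37 tested genes of the 4 pathway lists, coloured by list; filled points passed the threshold of limma's fit and open points did not. Rgs4 (-1.98), Lypd1 (-1.66) and Kcnj6 (0.62) are the pathway genes that passed.

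Markers of hippocampal neurons and of neighbouring tissues were read on the same arrays, and the counts below stand beside 0.739% of all features higher and 1.60% lower in Y+I. Of 12 markers of hippocampal principal neurons, 11 could be tested. Of these, 8 were detected on all 8 arrays, and Spink8, Prox1 and Dsp on 3, 2 and 2 Y+I arrays and on all 4 vehicle arrays. None passed the test, 7 were above 0, and C1ql2, Grik4, Spink8 and Dsp were below 0. Their summed level (the sum of linear signals over the 75th percentile) was 65.9 to 76.9 in Y+I and 37.3 to 55.2 in vehicle. That sum weighs its brightest probes most, here Fibcd1 (mean 5.07 in Y+I, 4.50 in vehicle) and Bok (4.55 and 3.91). The 10 interneuron markers all could be tested, none passed, and their sum was 31.8 to 37.9 in Y+I and 37.9 to 41.4 in vehicle.

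Of 12 thalamus and habenula markers, 7 could be tested and Slc17a6, the vesicular glutamate transporter 2 gene, fell (log2 difference -1.17 ± 0.21, SE; adjusted p = 0.0291 in limma's fit). The sum of these 7 was 1.80 to 2.20 in Y+I and 2.98 to 3.59 in vehicle, without overlap. The genes did not move alike: Tac1 differed by -0.89, while Tcf7l2 differed by 0.09 and Zic1 by 0.38. The median over the 7 was -0.42, and -0.09 with normexp correction. Gpr151, Pou4f1 and Six3 were not detected on any array, Gbx2 was detected on 1 Y+I array, and no probe was matched to Nwd2. Of 14 markers of neocortex, subplate and retrohippocampal cortex, 11 could be tested and 2 fell: Rxfp1, the relaxin receptor gene (-1.31 ± 0.15, SE; adjusted p = 0.00651), and Cplx3, a complexin gene of the subplate (-0.91 ± 0.17, SE; adjusted p = 0.0351), both in limma's fit. Their sum was 3.67 to 4.38 in Y+I and 4.78 to 5.72 in vehicle, their median difference was -0.37 (-0.26 with normexp correction), and Foxp2 was not detected. Of 10 striatal markers, 8 could be tested and Drd2, a dopamine receptor gene, fell (-0.60 ± 0.11, SE; adjusted p = 0.0278 in limma's fit). Their sum was 4.57 to 5.82 in Y+I and 5.80 to 6.23 in vehicle, their median difference was -0.63 (-0.23 with normexp correction), and Gpr6 was not detected.

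Of 8 markers of basal forebrain cholinergic neurons, 5 could be tested and 1, Ngfr, the p75 neurotrophin receptor gene, passed the test. It was detected on 0 of 4 Y+I and 4 of 4 vehicle arrays, so its Y+I level is only a bound. In the main values it was at least 2.07-fold lower in Y+I. That bound used the dimmest detected signal of each Y+I array, or Ngfr's own signal where that was higher. The test (adjusted p = 0.0155 in limma's fit) used Y+I signals that were not well above background. The measured means were -6.65 in Y+I and -4.81 in vehicle. The measured log2 difference of -1.84 was -0.27 with normexp correction and -0.78 in the authors' deposited value table. The bound therefore applies to the main values only. The sum of the 5 was 0.633 to 1.62 in Y+I and 0.421 to 0.956 in vehicle. Isl1 and Lhx8, transcription factor genes that define these neurons, were not detected on any array. Chrna4 is known to be abundant in thalamus and habenula and to be expressed in neocortex. The marker sums for those tissues were lower in Y+I, as was Chrna4. The interneuron sum was lower in Y+I as well, the striatal and basal forebrain sums overlapped, and the hippocampal principal neuron sum was higher. A linear sum weighs its brightest probes most. For thalamus and habenula those were Slc17a6 (mean -0.74 in Y+I, 0.44 in vehicle) and Tac1 (-1.03 and -0.14). For neocortex it was Nr4a2 (1.34 and 1.76). Higher in Y+I were 2 of the 7 thalamus and habenula markers and 1 of the 11 neocortex, subplate and retrohippocampal markers. The part of those tissues in the Chrna4 difference was not tested.

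**Figure D5:**
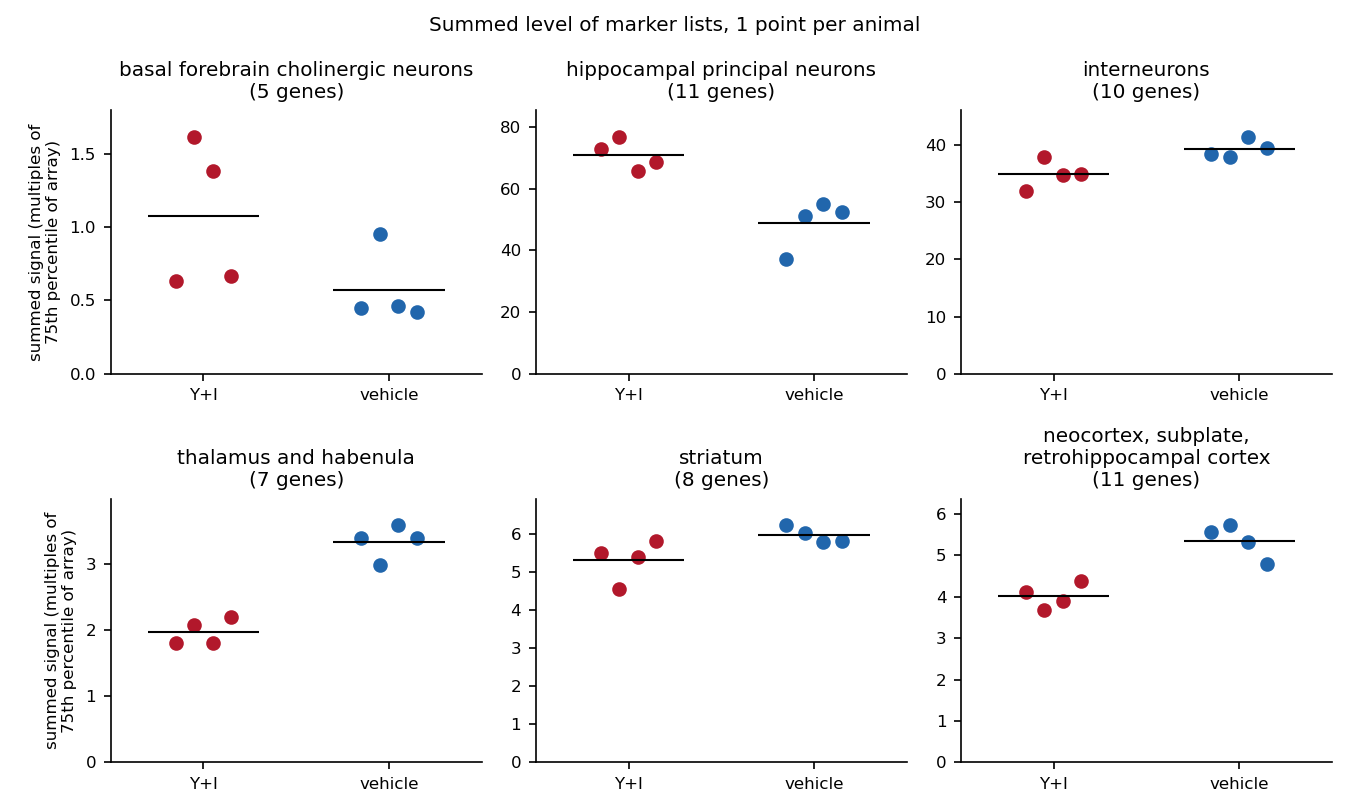
Summed level (sum of linear signals over the 75th percentile of the array) of the tested markers of 6 tissues or cell types in each Y+I and vehicle animal, with lines at group means and each axis starting at 0. Thalamus and habenula markers sum to 1.80 to 2.20 in Y+I and 2.98 to 3.59 in vehicle, and hippocampal principal neuron markers to 65.9 to 76.9 in Y+I and 37.3 to 55.2 in vehicle. Each sum weighs its brightest markers most.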

How the data were processed

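Rat hippocampal RNA of 4 Y+I and 4 vehicle animals was measured on 1-colour Agilent arrays. Per the file headers, Agilent Feature Extraction 10.5.1.1 gave a background-subtracted processed intensity per spot, not normalised between arrays. The authors' deposited value table holds log2 values whose scale and centring are not given in the sources used here. Its columns correlated with the scanner values at 0.9986 or more and have medians between -3.51 and -3.35; it served as an alternative, and its exact centring stays unknown.

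The main values were log2 processed intensity minus the array's 75th percentile over 58717 noncontrol spots. Non-uniform and population outlier spots were left out and a probe's spots averaged. A probe was kept, as 21370 of 30367 were, if at least 50% of its spots passed the background test on every array of 1 group or both and each group had at least 3 values. Processed signals near background are surrogates, so folds of dim probes depend on the background method; normexp on mean and background intensity (offset 50) was the alternative. RefSeq symbols of rat assembly GRCr8 replaced older names (matched by accession for 18004 probes, by symbol for 2320 and by synonym for 626, while 1999 kept the file's name and 7418 had none), and a gene was its brightest kept probe. Probe positions are those of the files, on rn4.

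The test was limma 3.58.1 (lmFit, eBayes; R 4.3.3), two-sided; p-values were adjusted over 18803 features by Benjamini and Hochberg, with a threshold of 0.05; the procedure was tested on simulated data. Figures were drawn with matplotlib 3.10.9. Genes of the other lists were named by a rule: Chat, Slc18a3 and Slc5a7, every gene that passed the threshold, and the 2 smallest p-values of each pathway list; the 3 nearest profiles were taken for Chrna4. The 10 genes, the lists and the rule were chosen with earlier results of these data known. Replicates are separate animals per the labels, and their number limits the precision. Animal numbers did not pair the groups.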

Additional observations from a re-analysis of the deposited data

Results flagged for a closer look

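Of 40 groups of 4 animals checked (the Y+I and the vehicle animals for each of 20 named genes), 1 held an animal far from the others by Dixon's criterion. The Chrna5 level of Y+I animal 4 was -5.23, against -2.78 to -2.45 in the other 3 Y+I animals; the gap was 0.882 of the group's range, above the 95% critical value for 4 animals. Chance alone flags about 1 in 20 such groups. The low value stood in both spots of the probe, as the plot of spot signals shows.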

How the results depend on the processing

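The count of features past the threshold, 439, was 3887 with no filter on background (3361 higher, 526 lower), 144 with the animal number as a replicate block and 170 without Y+I animals 2 and 3; leaving out 1 animal gave 120 (without vehicle animal 4) to 348 features. The other settings, among them quantile normalisation (388), normexp (604) and the deposited value table (375), stayed within 1.5 times of it. Of the 10 genes, Chrna4 passed in all 18 settings that tested it, with log2 differences of -2.91 to -1.39. Those settings reuse the same 8 arrays, and the gene was selected with this contrast known. The passes are therefore a description and not independent support. A filter on all 8 arrays left Chrna4 out, so the count of the 10 genes was 0 there. With no filter the count was 2, Chrm3 being the other, and over fits without 1 animal it was 1 to 2, with Chrm2 the other without Y+I animal 4. The count of other pathway genes was 10 with no filter, 5 with trend and robust fitting, and 1 to 3 without 1 animal. Kcnj6 did not pass with the replicate block (adjusted p = 0.125 in limma's fit) or without Y+I animals 2 and 3 (0.0738). Chrne, not called in the main values, passed with no filter, with trend and robust fitting, with array weights and without Y+I animal 4. Prkca, also not called there, passed with no filter, with normexp, with a filter on all 8 arrays and with trend and robust fitting. The animal numbers share only a number: the correlations of same-numbered deviations were 0.05, -0.11, -0.04 and 0.04, and 1 of 4 Y+I animals correlated best with its own number. Signs turned with normexp for Chrna7 (0.11), Chrnb2 (0.12), Chrm2 (0.21), Chrna3 (0.19, not in the fit), Chat (0.28), Slc5a7 (0.23) and Chrnb1 (0.14). They also turned without Y+I animals 2 and 3 for Chrna7 (0.0062), Chat (0.38) and Slc5a7 (0.39). Without 1 animal, the ranges crossed 0 for Ache (-0.093 to 0.10), Slc18a3 (-0.022 to 0.032), Chat (-0.40 to 0.15) and Slc5a7 (-0.52 to 0.56). The cause was not tested. Signal over background limits Chrna4, Chrna3, Chrm2 and Chrne in Y+I. The same limit holds for Chrna7, Chat, Slc5a7, Bche, Chrnb1 and Ngfr, among others, none of them detected on all 4 Y+I arrays.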
